A study of Mus musculus with 31 samples.

Results

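Sorted mouse natural killer (NK) cells labelled as knockout for TGFBRII were compared with wild-type (WT) NK cells, both after 24 h with the cytokine TGFB1. Tgfbr2 encodes TGFBRII, 1 of the chains through which cells sense the cytokine transforming growth factor beta (TGF-β). All 3 knockout and all 4 WT libraries with that treatment and time entered the comparison, 7 of the 31 libraries of the series. The genes described are the expressed autosomal ones, 9748 of the 27179 genes in the count table. A gene counted as expressed when it passed the low-count filter over the 9 groups of the series, as 10275 did, of which 527 lay off the autosomes or had no position. Besides these groups the series holds unstimulated cells (3 TGFBRII KO, 4 WT), cells at 4 h of TGFB1 (3 TGFBRII KO, 2 WT) and a further genotype, CIS KO. The labels number the libraries of a group as biological replicates. The sources used here do not give how the knockout was made, including any promoter or Cre driver, or the strain, sex, age and number of the animals, the organ and the culture medium. No cells kept for 24 h without TGFB1 were analysed here, so a change from unstimulated cells to 24 h holds the effect of TGFB1 and that of time together, and they cannot be told apart.

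TGF-β binds TGFBRII, the type II receptor, which recruits and activates the type I receptor TGFBR1. That kinase phosphorylates SMAD2 and SMAD3, which join SMAD4 in the nucleus and switch genes on or off, among them inhibitors that shut the pathway down again. In NK cells the pathway is known to restrain killing and proliferation and to support integrins that hold lymphocytes in tissues.

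Each 24 h library held between 673239 and 898365 counts, and levels are CPM, the count scaled to a common library size with TMM factors, in the order of the replicate numbers. The pairwise correlation of log CPM lay between 0.971 and 0.977 among the TGFBRII KO libraries, between 0.929 and 0.968 among the WT libraries and between 0.872 and 0.895 across genotypes. Tgfbr2 itself (chromosome 9, 116087695 to 116175363 in mm10) stood at 231, 245 and 225 CPM in TGFBRII KO and 228, 262, 313 and 341 CPM in WT, a difference of -0.29 ± 0.13 log2 units (adjusted p = 0.116). The count covers the whole gene, exons outside any deleted part included, and so cannot serve as a check of the knockout. The NK receptor genes Ncr1, Klrb1c and Klrk1 and the NK transcription factor genes Eomes and Tbx21 were all expressed and none was called. Prf1, perforin, the remaining NK marker listed, was called higher, at 223 to 248 CPM in TGFBRII KO and 59.4 to 108 CPM in WT. Of the B cell markers, Ms4a1, Pax5, Ighd and Igkc were at 0 in every 24 h library, and of the myeloid markers Lyz1, Lyz2, S100a8 and S100a9 were. Of 15 myeloid markers, 10 were at 0 in all TGFBRII KO libraries at 24 h and 9 in all WT libraries. Summed marker levels in TGFBRII KO and WT were 982.5 to 1019 and 855.7 to 927 CPM for 15 T cell markers, 16.3 to 45.1 and 141 to 165 CPM for 12 B cell markers, of which only Ighm passed the count filter, 199 to 204 and 223 to 300 CPM for 15 myeloid markers, and 129 to 171 and 173 to 298 CPM for 10 markers of type 2 and 3 innate lymphoid cells. The part of such cells in the results was not tested. Sex-linked transcripts moved with the genotype, so the genotypes compared may also differ in sex composition, and the effects of both cannot be told apart. The summed CPM of 4 Y-linked genes (Ddx3y, Eif2s3y, Uty and Kdm5d) was 195 to 376 in TGFBRII KO and 1.48 to 124 in WT, and Xist, made from the inactive X chromosome, was at 12.6 to 90.2 and 115 to 183 CPM. In bulk RNA, fewer cells of a type and less RNA per cell cannot be told apart.

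At 24 h, 1126 autosomal genes were higher and 994 lower in TGFBRII KO at an adjusted p under 0.05 (edgeR's quasi-likelihood test, Benjamini-Hochberg adjustment over all genes tested), which is 11.6% and 10.2% of the genes tested and 21.7% together. Differences are TGFBRII KO minus WT in log2 units, given ± standard error also where they stand alone in parentheses. The median log2 difference of all autosomal genes was -0.029. The largest fitted differences were on the lower side: 33 genes were at least 16-fold lower and 12 at least 16-fold higher, while 379 were at least 2-fold lower and 528 at least 2-fold higher. For genes at or near 0 counts in a group the fitted fold is uncertain. Against a floor of 3 counts over the group at 0, Hsf2bp was only bounded at 14.0-fold lower or more. Ryr1 was bounded in the same way at 8.15-fold higher or more. The KO and WT libraries did not overlap for 1054 of the genes called higher and 868 of those called lower. Of all genes tested, called ones included, 15.9% were higher and 14.1% lower without overlap, 30.0% together. The overlap uses the same libraries as the calls and is a description. Calls were about as frequent among weakly as among strongly expressed genes, with 13.1% higher and 10.4% lower in the lowest of 3 equal classes of mean CPM and 9.88% and 9.85% in the highest. With the Y-linked sum as a covariate, 715 genes were higher and 720 lower. That sum did not overlap between the genotypes at 24 h, so it can take up part of the genotype difference. A call lost or kept with this covariate therefore does not tell sex from genotype. The plot of difference against level shows the few very large reductions below and the broader field of increases above.

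**Figure D1:**
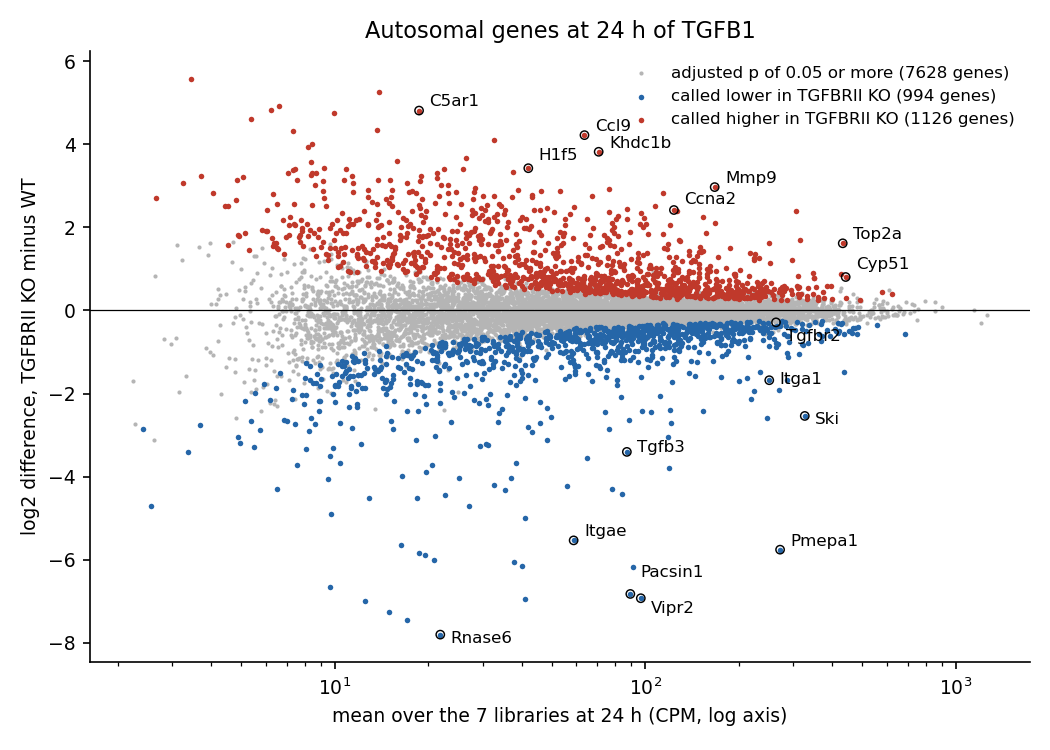
Log2 difference between TGFBRII KO and WT at 24 h of TGFB1 (vertical axis) against the mean of the 7 libraries in CPM (horizontal, log axis), 1 point for each of 9748 autosomal genes; red and blue points are the 1126 genes called higher and the 994 called lower. Vipr2, Pacsin1 and Pmepa1 lie far below the rest at mid to high levels, Ccl9 and Mmp9 far above it, and Tgfbr2 near 0.

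Genes that feed back on TGF-β signalling were lower in TGFBRII KO. Of the 16 measured, of 19 listed, 9 were lower and 1 was higher, beside 10.2% lower and 11.6% higher of all genes tested. The median log2 difference was -0.65. Pmepa1, a membrane protein that holds back SMAD activation (chromosome 2, 173224458 to 173276731), was at 10.7, 8.79 and 5.95 CPM in TGFBRII KO and 434, 386, 489 and 568 CPM in WT. Every WT library was far above every KO library, a difference of -5.76 ± 0.30 log2 units (adjusted p = 1.67e-16). Ldlrad4, a relative of Pmepa1 with the same role, was at 7.12, 5.03 and 2.38 and 92.7, 90.6, 98.4 and 95 CPM, a difference of -4.23 ± 0.31 log2 units (adjusted p = 9.01e-13). Ski, a co-repressor that binds SMADs (chromosome 4, 155154075 to 155222535), was at 91.4, 86.7 and 82.2 CPM in TGFBRII KO and 513, 438, 529 and 545 CPM in WT, a difference of -2.54 ± 0.12 log2 units (adjusted p = 2.82e-17). Its partner Skil differed by -1.94 ± 0.13 (adjusted p = 4.07e-14), from 327 ± 55.5 CPM in WT (SD, n = 4) to 85.1 ± 3.64 CPM in TGFBRII KO (SD, n = 3). Smad7, the inhibitory SMAD that competes for the receptor, stood at 35.6, 37.7 and 27.4 and 101, 105, 124 and 138 CPM, a difference of -1.79 ± 0.18 log2 units (adjusted p = 1.06e-09). The libraries of the genotypes did not overlap for any of these 5 genes. The ubiquitin ligase genes Smurf1 and Smurf2, whose products mark receptors and SMADs for destruction, were lower by smaller steps, with log2 differences of -0.82 ± 0.21 and -0.93 ± 0.17. The call of Smurf1 (log2 -0.70, adjusted p = 0.0977) was lost with the Y-linked covariate. Nrros, which tethers latent TGFB1 to the cell surface, was the member that was higher, at 127, 156 and 129.8 CPM against 90.0, 84.2, 83.5 and 84.6 CPM (0.68 ± 0.11, adjusted p = 7.49e-06).

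Among the TGF-β superfamily ligands and receptors, 11 of 24 were measured, of which 5 were lower and 1 higher (median log2 difference -0.38), with 3 lower without TGFBRII KO replicate 3. All genes tested gave 10.2% lower and 11.6% higher. Tgfb3, the gene of a TGF-β ligand, was at 11.9, 13.8 and 14.3 CPM in TGFBRII KO and 164, 135, 133 and 139 CPM in WT, a difference of -3.40 ± 0.18 log2 units (adjusted p = 3.50e-16). Tgfb1 was at 13.1, 8.79 and 10.7 and 34.9, 15.1, 26.8 and 38.6 CPM, a difference of -1.36 ± 0.32 log2 units (adjusted p = 0.00154). Both ligand genes were lower in every KO library than in any WT library. The co-receptor gene Tgfbr3 was nearly undetected in TGFBRII KO, at 0, 0 and 1.19 CPM, and stood at 6.71, 25.9, 14.9 and 19.3 CPM in WT (adjusted p = 3.70e-05). The call of Tgfb1 (log2 -0.71, adjusted p = 0.291) was lost with the Y-linked covariate. The type I receptor gene Tgfbr1 was at 107 ± 7.64 CPM in TGFBRII KO and 139.9 ± 26.3 CPM in WT and was not called (-0.38 ± 0.15, adjusted p = 0.0745). Acvrl1, which encodes the type I receptor ALK1, was the one member higher in TGFBRII KO. It was at 16.6, 17.6 and 8.33 CPM there and at 0, 1.08, 0 and 0 CPM in WT, a difference of 4.83 ± 0.73 log2 units (adjusted p = 3.46e-06). Of the 5 measured SMADs that carry the signal, Smad3 was higher (67.7, 69.1 and 75 against 41.6, 37.8, 29.8 and 40.1 CPM, 0.91 ± 0.25, adjusted p = 0.006), while Smad4 (0.22 ± 0.11) and Smad5 (-0.32 ± 0.13) did not pass the test.

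Classic SMAD targets known from other cell types gave a mixed picture. Of 16 measured of 26 listed, 4 were lower and 1 higher, beside 10.2% and 11.6% of all genes tested. The median log2 difference was -1.38. Spsb1, which encodes an adaptor that feeds back on the receptor, was at 0, 0 and 1.19 CPM in TGFBRII KO and 73.9, 66.9, 73 and 71.2 CPM in WT, a difference of -6.95 ± 0.53 log2 units (adjusted p = 4.85e-12). Transcripts of the immunoglobulin constant regions Igha and Ighm were also lower. Germline Igha transcription is induced by TGF-β in B cells, and Igha was at 4.75, 1.26 and 0 CPM in TGFBRII KO against 185, 152, 174 and 122 CPM in WT, a difference of -6.18 ± 0.38 log2 units (adjusted p = 3.29e-14). Ighm was at 40.4, 15.1 and 27.4 and 153, 142, 164 and 139 CPM (-2.42 ± 0.23). The counts of these neighbouring and related segments are uncertain in how reads were assigned. Id3, an inhibitor of basic helix-loop-helix factors, was lower (-1.85 ± 0.45, adjusted p = 0.00215). Cdkn1a, the CDK inhibitor p21 that SMADs raise in epithelial cells, was higher, at 279, 298 and 276 CPM in TGFBRII KO and 179, 170.5, 169.9 and 239 CPM in WT (0.59 ± 0.12, adjusted p = 2.65e-04). The other 11 members were not called. With the Y-linked sum as a covariate 7 members were lower, and 8 with no low-count filter. The list's median ran from -2.06, with the Y-linked covariate, to -0.41 over the alternatives.

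The plot of all gene lists places these pathway lists at the lower end and the cell cycle lists at the upper end.

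**Figure D2:**
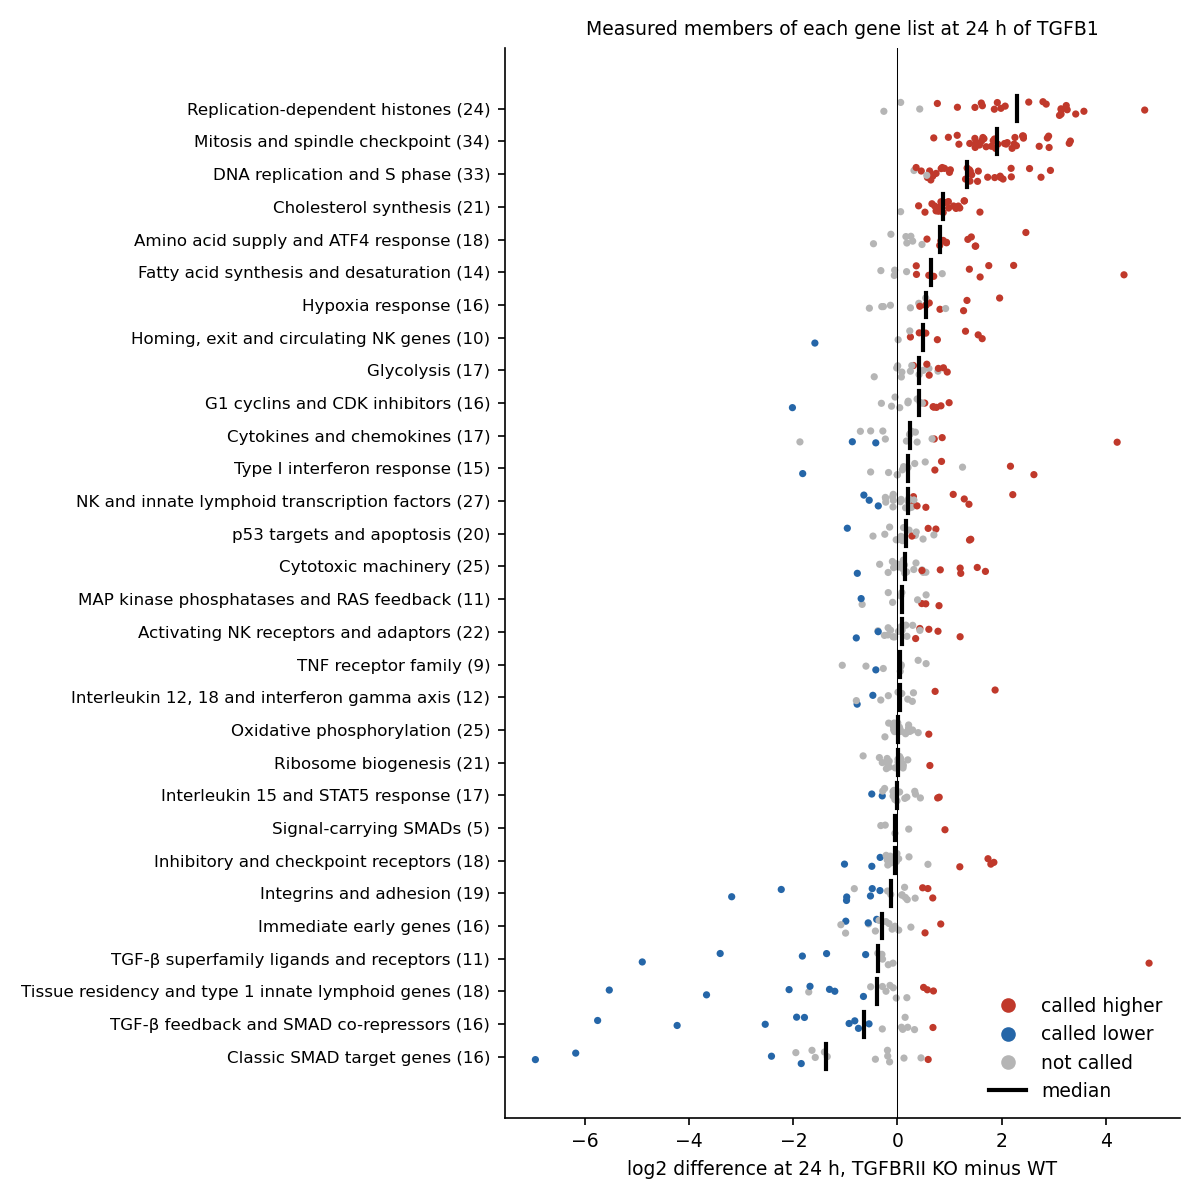
Log2 difference at 24 h (TGFBRII KO minus WT) of each measured member of each gene list, ordered by list median (black bar), with the number measured in parentheses; red points were called higher, blue lower and grey neither. Feedback and residency lists have medians of -0.65 and -0.40, and the mitosis and replication lists have medians of 1.91 and 1.34.

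The 15 largest reductions among autosomal genes that met the naming rule included 5 genes with no counts at all in TGFBRII KO. Rnase6, a secreted antimicrobial ribonuclease, was at 45.7, 34.5, 46.2 and 26.7 CPM in WT and at 0 in all 3 KO libraries, at least 31.9-fold lower against a floor of 3 counts over the KO group. The bounds were at least 24.9-fold for Scn3b (a sodium channel subunit), 21.9-fold for Ncmap, 18.2-fold for Csgalnact1, which starts chondroitin sulphate chains, and 14.0-fold for Hsf2bp. These bounds cover counting error only. Vipr2, a receptor for vasoactive intestinal peptide (chromosome 12, 116077420 to 116148637), was at 2.37, 0 and 1.19 CPM in TGFBRII KO and 168, 156, 168 and 181 CPM in WT, a difference of -6.93 ± 0.34 log2 units (adjusted p = 3.69e-17). Pacsin1, a membrane-bending adaptor of endocytosis, was at 0, 1.26 and 2.38 and 138, 181, 165 and 138 CPM, a difference of -6.82 ± 0.40 log2 units (adjusted p = 2.11e-14). These genes were thus on in all 4 WT libraries and close to 0 in all 3 KO libraries. Cd40, a co-stimulatory receptor best known from antigen-presenting cells, was at 1.19, 0 and 0 CPM against 30.9, 47.5, 37.3 and 29.7 CPM (-6.00 ± 0.63). Gpr155 (-6.15 ± 0.48), Apol9b (-6.06 ± 0.49), Tbc1d16 (-5.89 ± 0.64) and Ccdc74a (-5.85 ± 0.67) completed the list with Pmepa1, Spsb1 and Igha, and none of these exceeded 5 CPM in a KO library other than Pmepa1. Apol9b has near-identical relatives, which leaves its own count uncertain.

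Tissue-residency genes, which mark lymphocytes that stay in tissues, were lower in part. Of 18 measured of 21 listed, 7 were lower and 3 higher (median log2 difference -0.40), beside 10.2% and 11.6% of all genes tested. Itgae, the integrin CD103 that binds epithelial E-cadherin (chromosome 11, 73090505 to 73147449), was at 0, 3.77 and 2.38 CPM in TGFBRII KO and 67.1, 112, 119 and 107 CPM in WT, a difference of -5.53 ± 0.42 log2 units (adjusted p = 1.29e-12). Itga1, the collagen-binding integrin CD49a, was at 121, 109 and 102 and 367, 353, 385 and 319 CPM, a difference of -1.68 ± 0.14 log2 units (adjusted p = 1.41e-11). Nt5e, the ectoenzyme CD73 that makes adenosine, was at 4.75, 5.03 and 4.76 CPM against 52.4, 70.1, 56.6 and 74.2 CPM, a difference of -3.67 ± 0.31 log2 units (adjusted p = 2.08e-11). In each of the 3 genes the highest KO library was well below the lowest WT library. Ahr, a ligand-gated transcription factor of resident lymphocytes, was lower by a log2 difference of -2.08 ± 0.24, from 124 ± 32.3 CPM in WT (n = 4) to 29.2 ± 7.73 CPM in TGFBRII KO (n = 3). Inpp4b (-1.31 ± 0.17), Rgs2 (-1.20 ± 0.15) and Tnfsf10, the death ligand TRAIL (-0.65 ± 0.12), were the other lower members. The 3 higher ones were Entpd1, the ectoenzyme CD39 that acts upstream of CD73 (264, 302 and 311 against 195, 158, 199.7 and 174 CPM, 0.69 ± 0.15), Cd160 (0.50 ± 0.12) and Cd200r1 (0.57 ± 0.16). The chemokine receptor gene Cxcr6 and the early residency marker Cd69 were expressed at 218 ± 5.61 and 124 ± 8.70 CPM in TGFBRII KO and 222 ± 20.7 and 138 ± 21.3 CPM in WT, and neither was called.

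The promoter window of Nt5e is shown because the gene is among the residency genes with the largest differences at 4 h and at 24 h and its window holds the letters of a SMAD-binding repeat on the reverse strand. It covers the 250 bases before the RefSeq start on the forward strand of GRCm38.p6, chr9:88327359-88327608, with capitals for GTCTG, the reverse complement of CAGAC, at positions -69 and -32 from the start.
Nt5e: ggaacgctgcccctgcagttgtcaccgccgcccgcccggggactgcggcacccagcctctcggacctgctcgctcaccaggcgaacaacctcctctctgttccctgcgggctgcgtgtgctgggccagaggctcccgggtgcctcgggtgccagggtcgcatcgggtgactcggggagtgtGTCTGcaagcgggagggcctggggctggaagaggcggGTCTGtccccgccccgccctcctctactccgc
CAGAC on either strand was found in 51.5% of the RefSeq windows (250 bases before to 50 after the start) of the 7756 tested autosomal genes that had one. The share was 52.0% for genes called lower, 52.5% for genes called higher, and 7 of 10 for the feedback genes with a window, so the letters alone were as common in genes that moved either way as in all genes. A match is a run of letters and not a measured binding site.

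Other adhesion genes were called in both directions. Among 19 measured integrin and adhesion genes, of 21 listed, 7 were lower and 3 higher, beside 10.2% and 11.6% of all genes tested. With the Y-linked sum as a covariate 4 were lower and 1 higher, and 1 was higher without TGFBRII KO replicate 2. Itgb7, the β chain that pairs with CD103, was at 119, 113 and 123 CPM in TGFBRII KO and 259, 196, 252 and 229 CPM in WT, a difference of -0.98 ± 0.16 log2 units (adjusted p = 1.62e-05). Cdh1, E-cadherin itself, the ligand of CD103, was at 8.31, 7.54 and 4.76 and 30.9, 32.4, 31.3 and 37.1 CPM, a difference of -2.23 ± 0.37 log2 units (adjusted p = 1.78e-05). Both partners of the CD103 integrin were thus lower together with Itgae. The tetraspanin gene Cd9 (-0.97 ± 0.15) and Itgax, encoding CD11c (-0.52 ± 0.12), were lower as well. The call of Itgax (log2 -0.34, adjusted p = 0.186) was lost with the Y-linked covariate. Itgb2, the β chain of LFA-1, was higher, at 258, 250.0 and 254 CPM against 172, 140.3, 159 and 165 CPM (0.68 ± 0.11, adjusted p = 5.51e-06), and its α chain gene Itgal had a difference of 0.34 ± 0.14 that did not pass the test (adjusted p = 0.0773).

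Genes of homing, tissue exit and circulating mature NK cells were mostly higher in TGFBRII KO. Of 10 measured of 17 listed, 7 were higher and 1 lower (median log2 difference 0.48), beside 11.6% and 10.2% of all genes tested. With the Y-linked sum as a covariate 4 were higher. Klf2, the factor that drives lymphocyte exit genes, was at 26.1, 17.6 and 15.5 CPM in TGFBRII KO and 2.69, 7.55, 8.94 and 7.42 CPM in WT, a difference of 1.55 ± 0.37 log2 units (adjusted p = 0.00196). Rasgrp2, an activator of the integrin switch RAP1, was at 59.3, 47.7 and 58.3 and 24.2, 21.6, 22.4 and 20.8 CPM, a difference of 1.31 ± 0.22 log2 units (adjusted p = 1.52e-05). S1pr4, a sphingosine-1-phosphate receptor (0.54 ± 0.12), Klrg1, a receptor of mature NK cells (0.42 ± 0.10), and Ly6c2 (0.77 ± 0.16) were also higher in every KO library than in any WT library. Cma1, a mast-cell type protease that mature NK cells also transcribe, was at 28.5, 40.2 and 31 against 9.40, 10.8, 11.9 and 10.4 CPM (1.63 ± 0.31). Cxcr4, which retains cells in bone marrow, was the lower member (4.75, 7.54 and 2.38 against 12.1, 16.2, 8.94 and 22.3 CPM, -1.59 ± 0.42, adjusted p = 0.00541). The call of Cxcr4 was lost without TGFBRII KO replicate 3 (adjusted p = 0.0521). The calls of Klf2 (log2 1.47, adjusted p = 0.0572) and Klrg1 (log2 0.32, adjusted p = 0.123) were lost with the Y-linked covariate.

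The 15 largest increases that met the same rule, which leaves out genes known only by a model name (Gm or Rik), covered a chemokine, complement receptors, histones and several unrelated enzymes. Ccl9, a chemokine that attracts myeloid cells (chromosome 11, 83572917 to 83578636), was at 161, 116 and 139 CPM in TGFBRII KO and 5.37, 6.47, 7.45 and 10.4 CPM in WT, a difference of 4.22 ± 0.29 log2 units (adjusted p = 1.14e-13). C5ar1, the receptor for complement fragment C5a (chromosome 7, 16246743 to 16259540), was at 45.1, 32.7 and 47.6 and 1.34, 1.08, 2.98 and 0 CPM, a difference of 4.81 ± 0.48 log2 units (adjusted p = 1.01e-09). Its neighbour and relative C5ar2 stood at 21.4, 17.6 and 16.7 CPM against 0, 2.16, 1.49 and 0 CPM (4.01 ± 0.66). The 2 receptor genes were therefore on in all KO libraries and at or below 3 CPM in all WT libraries. Filip1, an actin-binding protein gene, was at 92.6, 59 and 60.7 CPM against 4.03, 6.47, 2.98 and 1.48 CPM (4.10 ± 0.36), and Khdc1b, from a cluster of near-identical genes whose counts are uncertain, at 167, 142 and 145 against 16.1, 12.9, 7.45 and 4.45 CPM (3.82 ± 0.25). Ryr1, a calcium release channel, was at 0 in all 4 WT libraries and at 4.75, 5.03 and 14.3 CPM in TGFBRII KO, at least 8.15-fold higher. Rnf183 (4.91 ± 0.77), Psg17 (4.61 ± 0.75), Bco1 (4.33 ± 0.68), Rasl11a (3.94 ± 0.62) and Fam20c, a kinase of secreted proteins (3.60 ± 0.48), were at or below 6.47 CPM in every WT library. The histone genes H2ac23 and H2ac4 and the desaturase gene Fads2 belong to lists described below.

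Mmp9, gelatinase B, which degrades collagen in basement membranes, was higher in TGFBRII KO at every time (chromosome 2, 164940326 to 164955850). At 24 h it was at 332, 303 and 366 CPM in TGFBRII KO and 38.9, 41, 50.7 and 40.1 CPM in WT, a difference of 2.97 ± 0.16 log2 units (adjusted p = 3.22e-16). In unstimulated cells it was at 372 ± 34.6 CPM (n = 3) and 222 ± 31.7 CPM (n = 4), so the means of TGFBRII KO at these times were close, and every WT library at 24 h was below every unstimulated one. At 4 h the TGFBRII KO libraries were at 246.9, 231.8 and 227.5 CPM, below all KO libraries of the other times. The plot of single libraries by time shows lower WT levels at 4 h and 24 h than in unstimulated cells for Ccl9 too. Pmepa1 and Ski show the opposite form, where WT was high at 4 h and 24 h. Itgae in WT was at 7.52 CPM in both libraries at 4 h and was high at 24 h only. Pmepa1 in TGFBRII KO reached 56.2 CPM in replicate 2 at 4 h.

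**Figure D3:**
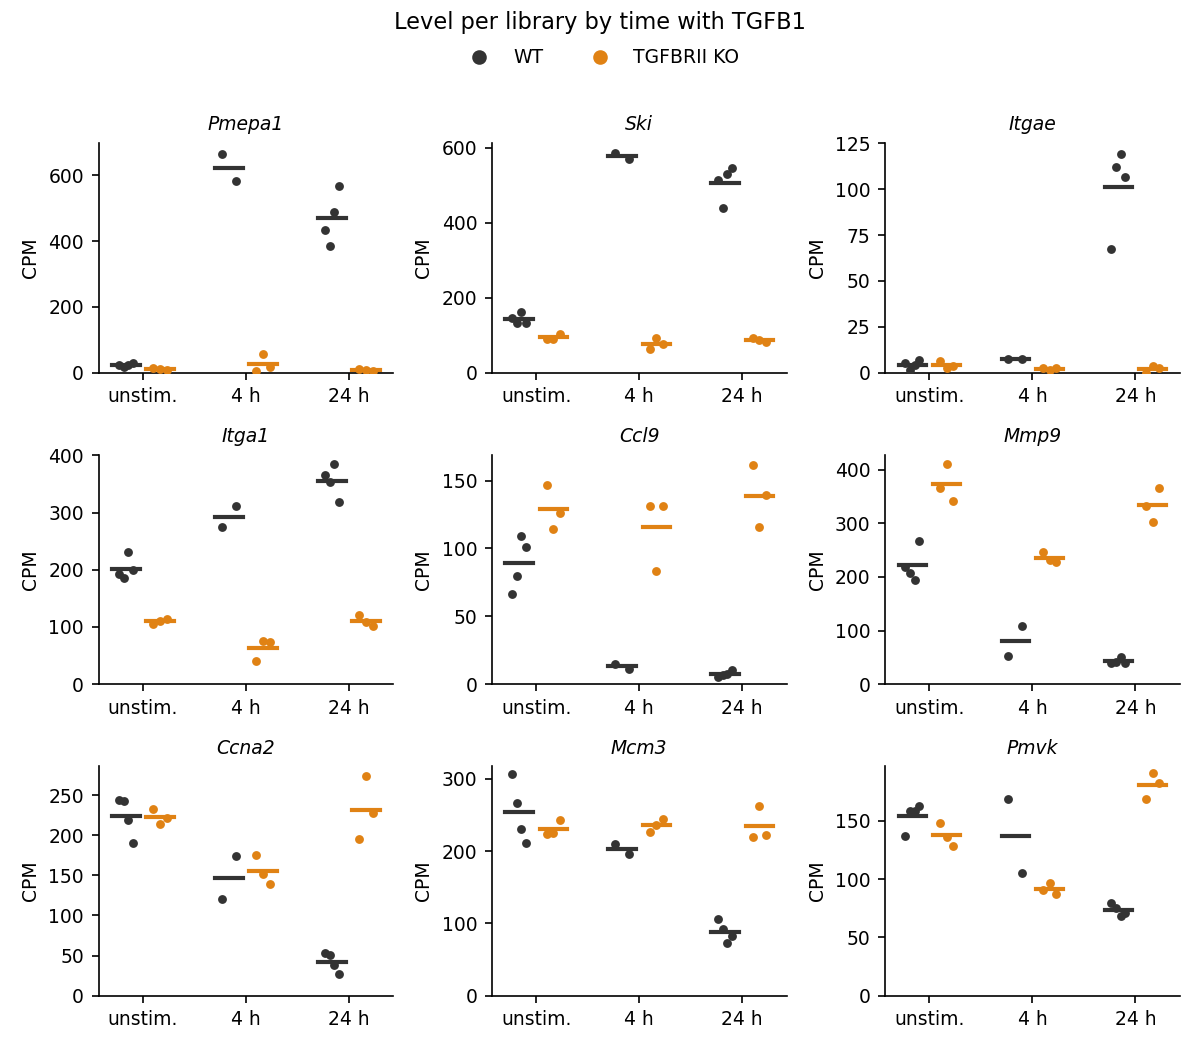
CPM of 9 genes in each library (points) with the group mean (bar) for WT (black) and TGFBRII KO (orange), unstimulated, at 4 h and at 24 h of TGFB1, 1 linear axis starting at 0 per gene. For all 9 genes the 24 h libraries of the genotypes do not overlap, while those of Ccna2 overlap in unstimulated cells and at 4 h.

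Cell cycle genes were higher almost throughout. All 34 measured mitosis genes were higher in TGFBRII KO, with a median log2 difference of 1.91, as were 31 of 33 measured replication genes, of 36 listed (median 1.34). The share of all genes tested was 11.6%. Ccna2, cyclin A2, which drives S phase and entry into mitosis, was at 195, 274 and 227 CPM in TGFBRII KO and 53.7, 50.7, 38.7 and 26.7 CPM in WT, a difference of 2.42 ± 0.16 log2 units (adjusted p = 4.23e-14). Cdk1, the kinase that starts mitosis, was at 202, 216 and 221 and 73.9, 74.5, 62.6 and 47.5 CPM, a difference of 1.70 ± 0.14 log2 units (adjusted p = 2.19e-11). Top2a, the topoisomerase that untangles replicated chromosomes, was at 707, 740.0 and 664 CPM against 293, 232, 218 and 174 CPM (1.62 ± 0.14). In each of these genes the lowest KO library was well above the highest WT library. The spindle genes Tpx2 (2.40 ± 0.18), Nusap1 (2.24 ± 0.16), Kif11 (2.91 ± 0.22) and Prc1 (2.09 ± 0.17), the checkpoint kinase gene Bub1 (3.32 ± 0.27) and the mitotic kinase gene Aurka (1.88 ± 0.15) gave differences of similar or larger size. The smallest difference of a mitosis gene was that of Incenp, part of the chromosomal passenger complex (297, 323 and 305 against 220.2, 182, 176 and 181 CPM, 0.70 ± 0.11, adjusted p = 3.85e-06).

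Of the replication genes, Mcm3, a subunit of the helicase that opens DNA, was at 219.6, 263 and 223 CPM in TGFBRII KO and 106, 91.7, 73 and 83.1 CPM in WT, a difference of 1.40 ± 0.12 log2 units (adjusted p = 7.11e-11). Mcm10, which joins the helicase when origins fire, was at 58.2, 55.3 and 57.2 and 12.1, 8.63, 5.96 and 1.48 CPM, a difference of 2.94 ± 0.33 log2 units (adjusted p = 1.43e-08). The helicase loader Cdc6 was at 74.8, 69.1 and 75 CPM against 30.9, 23.7, 8.94 and 7.42 CPM (1.97 ± 0.29). Both subunits of ribonucleotide reductase, which makes the DNA building blocks, were higher, Rrm1 by 1.43 ± 0.13 and Rrm2 by 2.54 ± 0.28. E2f2, an activating E2F factor, differed by 2.76 ± 0.28. Slbp (adjusted p = 0.293) and Ccne2 (adjusted p = 0.653) were the measured members that were not called. With each library left out in turn, 33 mitosis genes and 29 to 31 replication genes were higher. With the Y-linked sum as a covariate the counts were 33 and 24.

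Of 16 measured regulators of G1, 6 were higher and 1 was lower, beside 11.6% and 10.2% of all genes tested. Under the Y-linked covariate 2 were higher. Rbl1, the pocket protein p107, was at 86.6, 81.7 and 86.9 CPM in TGFBRII KO and 44.3, 54, 41.7 and 49 CPM in WT (0.84 ± 0.17, adjusted p = 2.37e-04). Ccnd1, cyclin D1, was the lower member, at 8.31, 17.6 and 9.53 against 49.7, 70.1, 37.3 and 29.7 CPM (-2.02 ± 0.41, adjusted p = 3.00e-04). Cdkn2c, an inhibitor of CDK4 and CDK6, was higher (0.70 ± 0.16). Ccnd2, cyclin D2, at 928 ± 27.4 CPM in TGFBRII KO and 805 ± 94.9 CPM in WT, was not called.

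In unstimulated cells the mitosis list had a median difference of -0.11 between the genotypes, with 0 of 34 genes called, and the replication list -0.083 with 0 of 33 called. From unstimulated cells to 24 h the median change of the mitosis list was -1.88 in WT and 0.20 in TGFBRII KO, and that of the replication list -1.34 and 0.024. Ccna2 went from 224 ± 25 CPM in unstimulated WT cells (n = 4) to 42.5 ± 12.3 CPM at 24 h (n = 4), and in TGFBRII KO it was at 223 ± 9.37 and 232 ± 39.8 CPM (n = 3 each). The genotype difference at 24 h exceeded that in unstimulated cells for 32 of the 34 mitosis genes and 27 of the 33 replication genes, tested as an interaction, against 6.91% of all autosomal genes.

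Genes of replication-dependent histones, which supply chromatin during S phase, were also higher. Only 24 of 63 such genes passed the count filter, and a gene that passed it through the KO libraries alone had to differ, so their count of 21 higher is a description. H1f5, a linker histone, was at 96.1, 89.2 and 76.2 CPM in TGFBRII KO and 6.71, 6.47, 8.94 and 10.4 CPM in WT, a difference of 3.42 ± 0.33 log2 units (adjusted p = 4.44e-10). H2ac22 was at 28.5, 28.9 and 34.5 and 4.03, 2.16, 1.49 and 5.94 CPM (3.14 ± 0.36), and H2ac23 at 15.4, 30.2 and 21.4 and 0, 1.08, 0 and 1.48 CPM (4.75 ± 0.81). The coding sequences of these genes are very similar, so reads could have been split between copies. H2ac4 had 19, 20.1 and 14.3 CPM in TGFBRII KO and 1.34, 1.08, 1.49 and 1.48 CPM in WT (3.58 ± 0.52).

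Promoter windows of 3 cell cycle genes are shown because most members of their lists were higher at 24 h and their windows hold the letters of cell cycle elements. Cdk1 and Cdc20 hold TTTGAA, the core of the cell cycle homology region, and Cdc6 holds GCGGGAAA, the reverse complement of the E2F letters TTTCCCGC. Each run covers the 250 bases before the RefSeq start, written in the direction of transcription, with the match in capitals. Cdk1 lies on the reverse strand at chr10:69352913-69353162 (matches at -71 and -15), Cdc20 on the reverse strand at chr4:118437344-118437593 (match at -18) and Cdc6 on the forward strand at chr11:98907901-98908150 (match at -138), all in GRCm38.p6.
Cdk1: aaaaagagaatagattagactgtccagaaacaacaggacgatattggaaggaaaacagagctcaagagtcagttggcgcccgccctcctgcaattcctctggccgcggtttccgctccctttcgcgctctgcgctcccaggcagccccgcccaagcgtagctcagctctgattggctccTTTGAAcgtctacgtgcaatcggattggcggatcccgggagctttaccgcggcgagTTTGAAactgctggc
Cdc20: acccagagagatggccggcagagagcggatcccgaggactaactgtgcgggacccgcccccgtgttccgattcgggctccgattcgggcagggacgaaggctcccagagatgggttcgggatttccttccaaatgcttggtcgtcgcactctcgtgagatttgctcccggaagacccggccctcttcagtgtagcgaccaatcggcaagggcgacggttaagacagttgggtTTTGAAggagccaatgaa
Cdc6: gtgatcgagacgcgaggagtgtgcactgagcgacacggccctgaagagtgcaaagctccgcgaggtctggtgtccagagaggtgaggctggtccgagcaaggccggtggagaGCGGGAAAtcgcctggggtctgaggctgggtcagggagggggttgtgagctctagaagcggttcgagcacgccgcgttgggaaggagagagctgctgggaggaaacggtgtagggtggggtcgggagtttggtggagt
TTTGAA on either strand stood in 14.2% of the windows of all tested autosomal genes, in 23.6% of those of genes called higher and in 13% of those called lower. Of the 27 mitosis genes with a window, 19 held it (70.4%), as did 4 of 27 replication genes. The E2F letters TTTGGCGC or TTTCCCGC, on either strand, stood in 3.84% of all windows, in 10 of 27 replication genes (37.0%) and in 0 of 27 mitosis genes. These shares describe letters only.

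Genes of cholesterol synthesis were also higher almost throughout: 20 of 21 measured, of 23 listed, were higher, beside 11.6% of all genes tested. The median log2 difference was 0.88. Pmvk and Mvk, consecutive kinases of the mevalonate pathway, were at 169, 191 and 182 and 112, 116 and 120.3 CPM in TGFBRII KO and 79.2, 75.5, 68.6 and 71.2 and 61.8, 46.4, 49.2 and 44.5 CPM in WT. Their log2 differences were 1.29 ± 0.13 (adjusted p = 1.47e-09) and 1.20 ± 0.13 (adjusted p = 5.85e-09). Neither these genes nor Stard4, a sterol carrier (1.28 ± 0.12), overlapped between the genotypes. Fdft1, which makes squalene, differed by 1.08 ± 0.12, and Insig1, the sterol sensor that restrains the pathway, by 1.17 ± 0.17. Srebf2, the gene of the master regulator itself, was the member that was not called, at 94.2 ± 6.72 CPM in TGFBRII KO and 91.5 ± 18.7 CPM in WT. The count was 19 to 20 with any library left out and 20 with the Y-linked covariate.

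Fatty acid synthesis and desaturation genes, a list chosen after their values were seen, had 9 of 14 measured members higher and 0 lower (median 0.65). All genes tested gave 11.6% higher and 10.2% lower. Scd1, the desaturase that makes oleic acid, was at 144, 232 and 167 CPM in TGFBRII KO and 38.9, 48.6, 31.3 and 31.2 CPM in WT, a difference of 2.23 ± 0.18 log2 units (adjusted p = 7.66e-12). Fads2, a desaturase of polyunsaturated fatty acids, was at 20.2, 36.4 and 34.5 and 2.69, 2.16, 0 and 0 CPM, a difference of 4.35 ± 0.49 log2 units (adjusted p = 1.38e-08). Scd2 (1.59 ± 0.25), the elongase gene Elovl6 (1.38 ± 0.20) and Acsl3, which activates fatty acids (1.75 ± 0.28), showed the same direction without overlap. Srebf1, the lipogenic regulator gene, was not called (-0.32 ± 0.24, adjusted p = 0.385). With a library left out the count was 5 to 9 (5 without TGFBRII KO replicate 2), and with the Y-linked covariate it was 5.

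Genes of amino acid supply and of the ATF4 response, which answers to amino acid shortage, were higher in 11 of 18 measured cases, of 21 listed, and lower in 0 (median 0.82). All genes tested gave 11.6% higher and 10.2% lower. Mthfd2, a mitochondrial enzyme of one-carbon metabolism that feeds purine synthesis, was at 296, 312 and 291 CPM in TGFBRII KO and 109, 119.8, 83.5 and 107 CPM in WT, a difference of 1.50 ± 0.11 log2 units (adjusted p = 9.20e-13). Chac1, which degrades glutathione, was at 46.3, 57.8 and 63.1 and 8.06, 10.8, 8.94 and 11.9 CPM, a difference of 2.47 ± 0.25 log2 units (adjusted p = 1.14e-09). The serine synthesis genes Phgdh (1.42 ± 0.18), Psat1 (0.88 ± 0.11) and Psph (0.83 ± 0.13) were all higher, with Shmt2, which passes serine carbon on (0.94 ± 0.11), and Asns, asparagine synthetase (1.49 ± 0.22). Each of these serine synthesis genes was higher in every KO library than in any WT library. Atf4 was at 33.2, 31.4 and 27.4 against 17.5, 9.71, 17.9 and 26.7 CPM (0.81 ± 0.29, adjusted p = 0.0392). The call of Atf4 was lost without TGFBRII KO replicate 1 (0.131), TGFBRII KO replicate 2 (0.105), TGFBRII KO replicate 3 (0.0552), WT replicate 1 (0.0649), WT replicate 2 (0.185) or WT replicate 3 (0.0609), with the adjusted p in parentheses. It was also lost with the Y-linked covariate (log2 1.03, adjusted p = 0.0782). Slc7a5, the large neutral amino acid transporter gene, had a difference of 0.47 ± 0.20 that did not pass the test (adjusted p = 0.0974).

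In glycolysis, 6 of 17 measured genes were higher and 0 lower (median 0.41), beside 11.6% and 10.2% of all genes tested. The higher count was 3 to 9 when a library was left out (3 without TGFBRII KO replicate 2). With library depth as a covariate it was 11. Slc2a3, a glucose transporter, was at 239.8, 278 and 269 CPM in TGFBRII KO and 137, 126, 143 and 165 CPM in WT, a difference of 0.88 ± 0.12 log2 units (adjusted p = 2.88e-07). The lactate exporter gene Slc16a3 (0.96 ± 0.21) and Pfkp, a phosphofructokinase (0.61 ± 0.13), were higher as well. Hk2, a hexokinase, was not called (119.7 ± 15 CPM in TGFBRII KO, 163 ± 31 CPM in WT). Of 16 measured hypoxia genes, 8 were higher and 0 lower (median 0.54), beside the same shares of all genes. Ero1a, an oxidase of protein folding, was at 311, 391 and 344 CPM against 106, 117, 151 and 211 CPM (1.27 ± 0.18, adjusted p = 8.76e-07), and Ankrd37 at 95, 80.4 and 44.1 against 6.71, 16.2, 17.9 and 35.6 CPM (1.96 ± 0.32). Hif1a, the oxygen-regulated factor itself, was higher by 0.55 ± 0.11 (adjusted p = 2.65e-04).

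Not all metabolic genes moved. The 24 h counts here stand beside 11.6% of all genes higher and 10.2% lower. Of 25 measured oxidative phosphorylation genes, 1 was higher (Ndufa4, 0.60 ± 0.21) and 0 were lower, with a median of 0.010, and with library depth as a covariate 6 were higher. The call of Ndufa4 was lost without TGFBRII KO replicate 1 (0.167), TGFBRII KO replicate 2 (0.0845), WT replicate 1 (0.0975), WT replicate 2 (0.0699) or WT replicate 4 (0.0663), with the adjusted p in parentheses. It was also lost with the Y-linked covariate (log2 0.74, adjusted p = 0.0769). Of 21 measured ribosome biogenesis genes, 1 was higher (Rrp12, 0.62 ± 0.22) and 0 lower, with a median of 0.0020. The call of Rrp12 was lost without TGFBRII KO replicate 1 (0.0967), TGFBRII KO replicate 2 (0.204), WT replicate 2 (0.0664), WT replicate 3 (0.0937) or WT replicate 4 (0.0923), with the adjusted p in parentheses. It was also lost with the Y-linked covariate (log2 0.54, adjusted p = 0.252). At 4 h, in other libraries, 16 of these 21 were higher, with a median of 1.24 and 5.76% of all genes higher. That comparison rests on 2 WT libraries, with 297561 counts in replicate 1 and 806473 in replicate 4. The alternatives were not run for list counts at 4 h.

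In the cytotoxic machinery, 6 of 25 measured genes were higher and 1 lower (median 0.14), beside 11.6% and 10.2% of all genes tested. Prf1, perforin, which opens the target membrane, was at 248, 245 and 223 CPM in TGFBRII KO and 79.2, 59.4, 87.9 and 108 CPM in WT, a difference of 1.53 ± 0.17 log2 units (adjusted p = 1.26e-08). Serpinb6b, an inhibitor of granule proteases, was at 534, 495 and 529 and 141, 152, 176 and 177 CPM, a difference of 1.69 ± 0.11 log2 units (adjusted p = 2.11e-14). Serpinb9, which protects killer cells from their own granzyme B, differed by 1.20 ± 0.13, and Serpinb9b by 1.22 ± 0.18. Perforin and the protective serpins were thus higher without overlap. Ctsw, a protease of cytotoxic cells, was lower, at 209, 195 and 214 CPM against 407, 292, 383 and 328 CPM (-0.77 ± 0.15, adjusted p = 1.47e-04). Gzmb, granzyme B, was at 763, 741 and 679 CPM in TGFBRII KO and 429.7, 467, 578 and 595 CPM in WT, and its difference did not pass the test (0.49 ± 0.20, adjusted p = 0.0681). Gzme was higher (0.82 ± 0.22, adjusted p = 0.00594). The call of Gzme (log2 0.84, adjusted p = 0.066) was lost with the Y-linked covariate. Granzyme counts levelled off with library depth: over the 31 libraries the slope of log count on log depth was 0.375 for Gzmb and 0.258 for Gzme, against 0.864 for Prf1. With depth as a covariate 14 cytotoxic genes were higher, and with the 7 libraries fitted alone 10 were. Granzyme and serpin genes have close copies, so their counts are uncertain.

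Among activating receptors and adaptors, 5 of 22 measured were higher and 2 lower, beside 11.6% higher and 10.2% lower of all genes tested. Of these members 1 was lower under the Y-linked covariate or without any one of the TGFBRII KO libraries or WT replicate 1. Slamf7, a receptor that triggers killing of cells that carry it, was at 322, 358 and 316 CPM in TGFBRII KO and 162, 132, 134 and 148 CPM in WT, a difference of 1.20 ± 0.17 log2 units (adjusted p = 6.11e-07). The lectin-like receptor genes Klrb1f (0.78 ± 0.20) and Klrb1b (-0.79 ± 0.11) differed in opposite directions. Plcg2, a signalling phospholipase, was higher (0.60 ± 0.12). Among inhibitory and checkpoint receptors, 4 of 18 measured were higher and 3 lower, beside the same shares of all genes, with 1 lower under the Y-linked covariate. Havcr2, the checkpoint receptor TIM-3, was at 198, 216 and 170.3 CPM against 60.4, 61.5, 44.7 and 46 CPM, a difference of 1.85 ± 0.16 log2 units (adjusted p = 1.98e-11). Ctla4 was at 43.9, 35.2 and 34.5 and 1.34, 16.2, 7.45 and 19.3 CPM (1.74 ± 0.41, adjusted p = 0.0015), and the immunoreceptor genes Lilrb4a (1.20 ± 0.18) and Lilr4b (1.79 ± 0.37), which are near-identical copies, were higher too. These 4 receptor genes were higher in all KO libraries. Cd96, a receptor for the ligand PVR (-0.49 ± 0.10), and Ptpn6, encoding the phosphatase SHP-1 (198, 157 and 187 against 432, 329, 368 and 337 CPM, -1.02 ± 0.12), were lower. The calls of Cd96 (log2 -0.25, adjusted p = 0.197) and Ctla4 (log2 1.39, adjusted p = 0.0792) were lost with the Y-linked covariate. None of the 8 measured Klra genes, the Ly49 receptors, was called.

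Of 17 measured cytokines and chemokines, 3 were higher and 2 lower, beside 11.6% higher and 10.2% lower of all genes tested. With the depth covariate 5 of them were higher. Ifng, interferon gamma, was at 132, 108 and 107 CPM in TGFBRII KO and 75.2, 59.4, 68.6 and 83.1 CPM in WT, a difference of 0.71 ± 0.14 log2 units (adjusted p = 2.53e-04). Ccl3 was at 184, 146 and 161 and 68.5, 64.7, 93.9 and 141 CPM, a difference of 0.86 ± 0.16 log2 units (adjusted p = 6.59e-05). Flt3l, a growth factor of dendritic cells, was lower (144, 138 and 144 against 275, 224, 276 and 264 CPM, -0.87 ± 0.19, adjusted p = 7.70e-04), as was Ccl1 (-0.42 ± 0.15, adjusted p = 0.0444). The interferon gamma and Ccl3 libraries did not overlap between genotypes, whereas those of Ccl1 did. The call of Ccl1 was lost without TGFBRII KO replicate 1 (0.056), TGFBRII KO replicate 2 (0.167), TGFBRII KO replicate 3 (0.0979), WT replicate 3 (0.111) or WT replicate 4 (0.201), with the adjusted p in parentheses. It was also lost with the Y-linked covariate (log2 0.032, adjusted p = 0.947). The call of Flt3l (log2 -0.67, adjusted p = 0.0792) was lost with the Y-linked covariate. In the axis of interleukins 12 and 18, 2 of 12 measured genes were higher and 2 lower, beside the same shares of all genes. None of the 12 was lower with the Y-linked covariate, with DESeq2 (0 each) or without TGFBRII KO replicate 2 or 3, and 4 were higher with the depth covariate. Il18rap, the accessory chain of the interleukin 18 receptor, was at 54.6, 50.3 and 59.5 CPM against 14.8, 20.5, 13.4 and 8.90 CPM, a difference of 1.88 ± 0.26 log2 units (adjusted p = 9.57e-07). Il12rb1, 1 chain of the interleukin 12 receptor, was higher (0.72 ± 0.13).

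In the response to interleukin 15 and STAT5, 2 of 17 measured genes were higher and 2 lower, beside 11.6% higher and 10.2% lower of all genes tested. The lower count was 0 with the Y-linked covariate and 1 without any one of the TGFBRII KO libraries or WT replicate 4, and the higher count was 4 with the depth covariate. Pim1, a survival kinase, was at 204, 196 and 185 CPM in TGFBRII KO and 125, 111, 90.9 and 129 CPM in WT, a difference of 0.77 ± 0.11 log2 units (adjusted p = 1.75e-06). Il2ra, the α chain of the interleukin 2 receptor, was higher (0.80 ± 0.20, adjusted p = 0.0033). Cish, which encodes CIS, the inhibitor of interleukin 15 signalling that is knocked out in a further genotype of the series, was lower, at 173, 144 and 144 CPM against 218, 180.2, 228 and 248 CPM (-0.49 ± 0.12, adjusted p = 0.00173). The call of Cish (log2 -0.29, adjusted p = 0.236) was lost with the Y-linked covariate.

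Of 27 measured transcription factors of NK and other innate lymphoid cells, 8 were higher and 3 lower, beside 11.6% and 10.2% of all genes tested. Myb, a factor of dividing progenitors, was at 57, 71.6 and 31 CPM in TGFBRII KO and 13.4, 10.8, 7.45 and 13.4 CPM in WT, a difference of 2.21 ± 0.31 log2 units (adjusted p = 6.94e-07). Runx1 was at 366, 294 and 343 and 115, 87.4, 151 and 171 CPM, a difference of 1.37 ± 0.19 log2 units (adjusted p = 4.68e-07), while its relative Runx3 was at 379, 383 and 342 and 556, 452, 542 and 596 CPM (-0.54 ± 0.12, adjusted p = 8.39e-04). The 2 RUNX genes thus differed in opposite directions without overlap between the genotypes. Maf was higher (1.28 ± 0.17), and Gata3 (-0.64 ± 0.14) and Ikzf3 (-0.37 ± 0.098) were lower. The calls of Ikzf3 (log2 -0.27, adjusted p = 0.193) and Runx3 (log2 -0.44, adjusted p = 0.0729) were lost with the Y-linked covariate. With a library left out 4 to 8 of these factors were higher, 4 without TGFBRII KO replicate 1 and 5 without KO replicate 2 or WT replicate 2. The Y-linked covariate gave 5 higher and 1 lower.

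Smaller signals came from the remaining lists. Of 15 measured interferon response genes, 4 were higher and 1 lower: Oas3 was at 22.6, 22.6 and 31 CPM against 4.03, 3.24, 4.47 and 4.45 CPM (2.62 ± 0.43) and Mx1 at 15.4, 21.4 and 27.4 against 9.40, 5.40, 2.98 and 0 CPM (2.17 ± 0.51), while Usp18, which damps the response, was lower (-1.82 ± 0.51). Among 16 immediate early genes, 3 were lower, among them Egr2 (-0.99 ± 0.18) and Egr1 (-0.56 ± 0.15), and 2 were higher, led by Ier3 (0.83 ± 0.16), and with the Y-linked covariate 0 were lower. Of 20 p53 targets and apoptosis genes, 5 were higher, with Pmaip1, the death-promoting protein NOXA, at 33.2, 22.6 and 36.9 CPM in TGFBRII KO and 6.71, 14, 11.9 and 13.4 CPM in WT (1.41 ± 0.33), and 1 was lower. Without TGFBRII KO replicate 1 only 2 were higher, without KO replicate 2 or 3 or WT replicate 1 or 2 it was 3, and without KO replicate 2 or 3 none was lower (0). Of 11 measured MAP kinase phosphatase and RAS feedback genes, 3 were higher and 1 lower, and 1 was higher without TGFBRII KO replicate 1 or WT replicate 1. Of 9 measured TNF receptor genes, 0 were higher and 1 was lower (Tnfrsf1b, -0.42 ± 0.14). The call of Tnfrsf1b was lost without TGFBRII KO replicate 1 (0.058), TGFBRII KO replicate 2 (0.0578), TGFBRII KO replicate 3 (0.116), WT replicate 3 (0.106) or WT replicate 4 (0.122), with the adjusted p in parentheses. It was also lost with the Y-linked covariate (log2 -0.28, adjusted p = 0.4). The calls of Egr1 (log2 -0.28, adjusted p = 0.38), Egr2 (log2 -0.53, adjusted p = 0.116), Mx1 (log2 1.63, adjusted p = 0.107) and Usp18 (log2 -1.13, adjusted p = 0.294) were lost with the Y-linked covariate. These counts stand beside 11.6% of all genes higher and 10.2% lower.

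Few genes were called before TGFB1. In unstimulated cells 4 autosomal genes were higher and 8 lower in TGFBRII KO, which is 0.041% and 0.0821% of those tested, with 884 genes at an unadjusted p under 0.05. These counts depended on the setting: without WT replicate 1 they were 48 and 28, without TGFBRII KO replicate 1 they were 1 and 4, DESeq2 gave 2 and 5, depth as a covariate 28 and 31, and no low-count filter 110 and 53. Of the genes called lower at 24 h, 67.3% had a negative difference in unstimulated cells, in libraries the 24 h comparison does not use, with a median of -0.10, against 52.7% of all genes. Of the genes called higher at 24 h, 53.7% had a positive difference there, with a median of 0.020, against 47.3% of all genes. At 4 h, 561 genes were higher and 621 lower (5.76% and 6.37%), with 2 WT libraries only, and 299 to 526 and 431 to 596 when a library was left out (354 higher without WT replicate 1 and 299 without WT replicate 4).

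The lower side was shared between the times more than the higher side. Of the genes called lower at 24 h, 354 were lower at 4 h too, 35.6% of the 24 h list and 57.0% of the 4 h list, and 12 were called in the opposite direction. Of those called higher at 24 h, 179 were higher at 4 h, 15.9% of the 24 h list and 31.9% of the 4 h list, with 6 in the opposite direction. The 24 h and 4 h comparisons use different libraries of both genotypes. The difference in sharing between the sides was not tested.

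A few genes were called in the same direction in unstimulated cells, at 4 h and at 24 h. Higher at all times were Mmp9 and Sik1, a salt-inducible kinase gene, which was at 62.9, 65.3 and 54.8 CPM in TGFBRII KO and 17.5, 22.7, 25.3 and 41.5 CPM in WT at 24 h and had log2 differences of 1.23 ± 0.23, 1.28 ± 0.34 and 1.21 ± 0.26 in order of time. Lower at all times were Ski, Itga1, Zfp318, Ifi208, Ifitm3 and Limd1. Itga1 differed by -0.88 ± 0.14 in unstimulated cells (adjusted p = 0.00148), -2.24 ± 0.18 at 4 h and -1.68 ± 0.14 at 24 h. Zfp318, a nuclear zinc-finger protein gene, was at 74.8, 66.6 and 82.2 and 359.9, 370.1, 297 and 286 CPM at 24 h, with differences of -1.10 ± 0.18, -2.39 ± 0.23 and -2.14 ± 0.16. Both differences were larger at 24 h than in unstimulated cells (interaction adjusted p = 0.00614 for Itga1 and 0.00361 for Zfp318). Ifitm3, an antiviral membrane protein gene, kept a difference between -1.04 and -0.91 at all times. Ifi208, from a cluster of similar interferon-inducible genes with uncertain counts, had -2.21 ± 0.26, -3.39 ± 0.35 and -1.21 ± 0.27. Limd1 lies within 10 Mb of Tgfbr2 on chromosome 9 and had -0.55 ± 0.094, -0.56 ± 0.12 and -0.53 ± 0.096.

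The genotype difference at 24 h lay above that in unstimulated cells for 674 autosomal genes and below it for 387 (6.91% and 3.97%, interaction). Above means toward a higher level in TGFBRII KO. Genes were counted by the sign of the change in the difference between these times. A gene whose difference of the opposite sign became smaller is thus included. For Pmepa1 this change was -4.79 ± 0.66 (adjusted p = 1.87e-06), for Itgae -5.47 ± 0.93 (adjusted p = 5.93e-05), for Ccna2 2.42 ± 0.20 (adjusted p = 3.14e-10) and for Pmvk 1.45 ± 0.18 (adjusted p = 2.57e-07). Among the genes called lower at 24 h, the median change from unstimulated cells to 24 h was 0.606 in WT and -0.080 in TGFBRII KO, and among those called higher it was -0.794 in WT and 0.11 in TGFBRII KO. These medians use the 24 h libraries that chose the genes and are a description. The plot of list medians by time shows that the feedback and residency lists had medians of -0.12 and -0.033 in unstimulated cells and -0.29 and -0.64 at 4 h. The mitosis, replication, cholesterol and ATF4 lists had medians of -0.11, 0.18, 0.17 and 0.16 at 4 h and were well above 0 at 24 h.

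**Figure D4:**
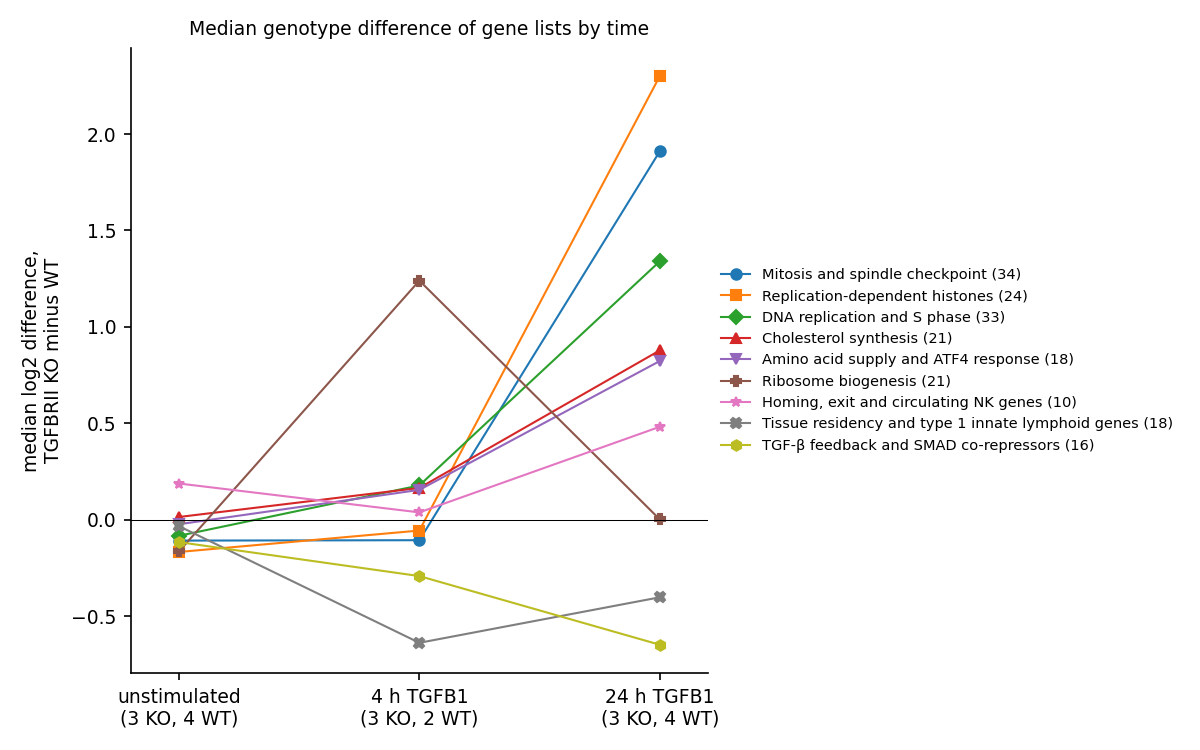
Median log2 difference between TGFBRII KO and WT (vertical axis) over the measured members of 9 gene lists, in unstimulated cells, at 4 h and at 24 h of TGFB1 (horizontal axis, not to scale in time), with the number measured in parentheses. The mitosis list goes from -0.11 and -0.11 to 1.91, the ribosome biogenesis list peaks at 1.24 at 4 h, and the feedback list goes from -0.12 through -0.29 to -0.65. The 4 h medians rest on 2 WT libraries, 1 of them with 297561 counts.

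Genes near Tgfbr2 were called about as often as others. Within 10 Mb of Tgfbr2 on chromosome 9, 14 of 148 tested genes were higher and 15 lower at 24 h (19.6%, against 21.7% of all), and 1 was called in unstimulated cells. By chromosome the share called ran from 18.0% on chromosome 3 to 28.7% on chromosome 13, where 71 genes were higher and 39 lower and where most of the measured histone genes lie.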

How the data were processed

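RNA from sorted NK cells was made into directional libraries, per the labels' protocols. The authors deposited 1 table of whole-number counts per Entrez gene ID and library, with 27179 genes. The submitters' processing notes name FastQC, Trimmomatic, Subread, featureCounts, Picard, SAMtools and the build mm10, with no versions. The sources used here do not give the strand setting, the other counting options or any removal of duplicate reads, so antisense and overlapping genes are uncertain. The highest count of a gene in any library was 2772. Symbols and positions came from RefSeq (GRCm38.p6) for 25275 IDs and from GENCODE M21 for 18.

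The counts were fitted as deposited with edgeR 4.0.16 (limma 3.58.1, R 4.3.3) over the 31 libraries and 9 groups of the series, which share 1 estimate of the spread. Genes passed filterByExpr, libraries were scaled by TMM, and the quasi-likelihood test with Benjamini-Hochberg adjustment over all tested genes was called at an adjusted p under 0.05. A difference is TGFBRII KO minus WT in log2 units, with its standard error. That error was derived from the test, as the absolute log2 difference divided by the square root of the F statistic. It is approximate, above all for genes near 0 in a group. The p-values measure the spread between the libraries of a group. The 24 h libraries hold 673239 to 898365 counts. The script of the test was tested on simulated data.

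The text names Tgfbr2, the 15 largest differences in each direction (genes with a symbol other than a Gm or Rik model name, at least 5 CPM in the higher group and no overlap between genotypes), up to 5 members with the smallest p of each list and members needed by role, and genes called at all times. Members and lists were chosen with earlier results of these data known, and the fatty acid list after its values were seen. Alternatives were library size or RLE scaling, no low-count filter, the replicate number as a block, library depth or the Y-linked sum as a covariate, the compared groups alone, DESeq2 1.42.0, and each library left out in turn. Promoter windows are RefSeq sequences of GRCm38.p6, matched by gene ID to 7756 of the 9748 tested autosomal genes.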

Additional observations from a re-analysis of the deposited data

Results flagged for a closer look

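In 12 of the 178 genes named, 1 of the 4 WT libraries at 24 h stood far from the other 3 by Dixon's test at the 95% level. Chance alone gives this in about 1 in 20 groups. WT replicate 2 was the highest for Acvrl1 (1.08 CPM), Bco1 (2.16 CPM), Kif11 (32.4 CPM) and Rnf183 (1.08 CPM). WT replicate 3 was the highest for Cd160 (198 CPM), Cd200r1 (95.4 CPM) and Smurf2 (149 CPM), and WT replicate 4 for Cdkn1a (239 CPM) and Rgs2 (136.5 CPM). WT replicate 1 was the highest for Incenp (220.2 CPM) and Psg17 (1.34 CPM) and the lowest for Srebf1 (57.7 CPM). For Acvrl1, Bco1, Psg17 and Rnf183 the value comes from a few counts, with the other WT libraries at or near 0.

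The genotype difference at 24 h went above that in unstimulated cells for 674 autosomal genes and below it for 387, by the interaction term of the fit.

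Among the 527 tested genes off the autosomes or with no position, which no comparison above uses except for the sex-linked sums, 55 were called higher and 43 lower at 24 h.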

How the results depend on the processing

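At 24 h the calls numbered 859 to 1034 higher and 719 to 966 lower with a library left out, 932 and 681 with DESeq2, and 715 and 720 with the Y-linked covariate, which left 60.0% of the calls in place. The Y-linked sum moved with the genotype, so the fit with it cannot tell sex from genotype. In unstimulated cells the 4 higher and 8 lower genes became 9 higher with RLE factors, 110 and 53 with no filter, 28 and 31 with library depth as a covariate, 10 higher with the compared groups alone, 2 and 5 with DESeq2, and 1 to 48 and 4 to 28 with a library left out. At 4 h the counts were 301 and 393 with the Y-linked covariate, 338 and 380 with the compared groups alone, 352 higher with DESeq2, and 299 to 526 and 431 to 596 with a library left out. The interaction gave 518 to 690 above and 279 to 515 below with a library left out.

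Of 158 named genes called at 24 h, 22 lost the call under at least 1 alternative, 21 of them with the Y-linked covariate and 6 with a library left out. With the compared groups alone only 171 named genes passed the count filter. Acvrl1, Bco1, Cxcr4, Psg17, Rnf183, Ryr1 and Usp18 did not, nor did Ryr1 without TGFBRII KO replicate 3. A gene that failed the filter is not counted as losing its call there. The sign changed for 5 genes with small differences, all uncalled where it did: with the Y-linked covariate Ccl1 was at 0.032, Ccne2 at -0.060, Cd69 at 0.028 and Cxcr6 at 0.053. Cxcr6 was at 0.038 with the depth covariate and, with a library left out, between -0.069 and 0.021, above 0 without WT replicate 3 (0.0066) or 4. Srebf2 lay between -0.064 and 0.17 with a library left out, below 0 without TGFBRII KO replicate 2 (-0.0054) or WT replicate 2. The cause of these shifts was not tested.

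With the replicate number as a block the counts were 1101 and 982 at 24 h, 3 and 6 in unstimulated cells, 419 and 493 at 4 h, and 663 and 384 for the interaction, and the calls of Ccl1, Rrp12 and Tnfrsf1b were lost. The deviations of same-numbered KO and WT libraries at 24 h correlated by -0.17, 0.0028 and -0.017. With so few libraries per group, these values cannot tell whether same-numbered libraries share an animal or a batch.

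The 24 h libraries hold 673239 to 898365 counts each, and a gene that was not called is not shown to be equal between the genotypes.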

Other observations

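The series holds a further genotype, CIS KO, with 4 libraries at 24 h of TGFB1, which belongs to no comparison above. Its levels at that time were 448 ± 38.6 CPM for Pmepa1, 56 ± 20.7 CPM for Itgae, 4.58 ± 1.96 CPM for Ccl9, 52.2 ± 12.3 CPM for Mmp9, 111 ± 10.9 CPM for Ccna2 and 104 ± 18.5 CPM for Pmvk (SD, n = 4). The matching means were 469 ± 78.2, 101 ± 23.4, 7.42 ± 2.15, 42.7 ± 5.40, 42.5 ± 12.3 and 73.6 ± 4.71 CPM in WT (SD, n = 4) and 8.48 ± 2.38, 2.05 ± 1.91, 139 ± 22.9, 334 ± 31.4, 232 ± 39.8 and 181 ± 11.3 CPM in TGFBRII KO (SD, n = 3). Tests of CIS KO against the other genotypes are not reported here.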
